A study of Mus musculus with 2 samples.

Results

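The vacuolar proton pump (V-ATPase) subunits and the cathepsins were examined in nuclei of fetal mouse lung. Members were the gene features whose names fit the naming pattern of the pump's V0 and V1 subunits or of the cathepsins in both libraries. The pattern took 40 of 32285 gene features, 22 of them V-ATPase subunits and 18 cathepsins. Wild-type C57BL/6J fetuses were collected on gestation day 18 from 1 mother per group. The females were sensitized at 6 to 8 weeks of age with alum alone or with alum and 100 µg ovalbumin (OVA), and received PBS or 500 µg OVA by the nose every 2 to 3 days from gestation day 4 to 17. Lungs of 9 fetuses of the control mother (PBS library) and of 8 fetuses of the OVA-asthmatic mother (OVA library) were pooled. From these lungs, immune cells positive for CD45, epithelial cells positive for EpCAM and type 2 innate lymphoid cells (ILC2s, sorted as CD45+ Lin- ST2+) were combined, and RNA and open chromatin were read from the same nuclei. With 1 library of pooled fetuses per group, the effects of treatment, mother and library cannot be told apart.

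The V-ATPase pumps protons into lysosomes, endosomes and secretory vesicles. Its V1 domain faces the cytosol and splits ATP, and its V0 domain sits in the membrane and carries the protons. Several subunits exist in alternative forms, and specialized forms such as a4, B1, C2 and d2 are known from kidney, epithelia, osteoclasts and macrophages. Cathepsins are proteases, most of which need the acid that the pump makes. Macrophages use them to degrade what they engulf, and alveolar type 2 (AT2) cells use cathepsin H to process surfactant proteins in lamellar bodies, which are lysosome-related organelles.

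The PBS library held 8019 barcodes and the OVA library 5960, with 54 barcode sequences in both. Mitochondrial genes took 45.2% and 29.2% of gene counts, so levels are given as CPM, the unique molecular identifiers (UMIs) of a gene per 1000000 UMIs of nuclear genes. Nuclei were gated by their own UMIs of marker genes outside the family, which assigned 7 types with at least 50 nuclei in each library. The macrophage gate held 184 PBS and 363 OVA nuclei, with all 11 of its markers detected in each library. The other gates held 321 and 480 ILC2, 528 and 337 AT2, 144 and 239 alveolar type 1 (AT1), 140 and 219 fibroblast, 146 and 188 myofibroblast or smooth muscle, and 60 and 94 pericyte nuclei. Stromal nuclei were present although no stromal cells had been sorted. Leading genes outside the panels in the macrophage gate included Dab2, Plek and Cd86 in both libraries. Most kept nuclei did not meet the rule of any gate, so the types here are the nuclei whose identity showed in their own counts. As a measure of free RNA, the AT2 surfactant gene Sftpc stood in macrophage nuclei at 0.906% (PBS) and 0.773% (OVA) of its level in AT2 nuclei. The median macrophage nucleus had 828 (PBS) and 1406 (OVA) nuclear-gene UMIs.

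Promoter stretches are shown for members whose start-site accessibility differed between types and for which RefSeq (GRCm38.p6) listed a promoter. Of the 40 members 30 matched. Capitals mark a searched motif, and each stretch runs 5′ to 3′ on the gene's strand and lies outside annotated exons. The Atp6v1a and Atp6v1c2 stretches lie inside the annotated span of their gene. Ctsc is shown from 197 to 98 bases before its RefSeq start, chr7:88277888-88277987 (+), with the capitals marking GAGGAAGT on the opposite strand, an ETS-type motif of the kind that PU.1 binds. Atp6v1a is shown from 178 to 79 bases before its start, chr16:44139338-44139437 (-), with the capitals marking TCACGTGA, the core of the motif that TFEB and its relatives bind at lysosomal genes. Atp6v0a4, chr6:38124587-38124686 (-), and Atp6v1c2, chr12:17324731-17324830 (-), are the 100 bases before the start and hold neither motif.
Ctsc: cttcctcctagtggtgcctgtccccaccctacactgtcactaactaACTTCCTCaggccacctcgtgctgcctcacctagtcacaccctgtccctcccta
Atp6v1a: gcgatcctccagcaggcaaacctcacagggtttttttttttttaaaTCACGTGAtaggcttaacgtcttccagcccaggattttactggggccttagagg
Atp6v0a4: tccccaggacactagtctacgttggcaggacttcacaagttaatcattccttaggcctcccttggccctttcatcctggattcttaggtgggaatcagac
Atp6v1c2: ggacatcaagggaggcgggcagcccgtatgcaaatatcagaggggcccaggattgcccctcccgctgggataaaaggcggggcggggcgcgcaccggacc

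The motifs were searched on both strands in the window from 250 bases before to 50 bases after the start, in 1 promoter per member. The longer motif made of TCACGTGA with G before it and C after it was found in 0 of the 30 members, against 0.326% of 32817 promoters. TCACGTGA was found in 4 of the 30 members (Atp6v0d1, Atp6v0e, Atp6v1a and Ctsd), against 0.975% of promoters. The shorter CACGTG, which TCACGTGA contains, was found in 7 members (also Atp6v0b, Ctsf and Ctsl), against 7.15% of promoters. GAGGAAGT was found in Ctsc, 151 bases before the start, and in Ctss, where it begins 2 bases before the start, against 3.20% of promoters. These are matches of letters and not sites of binding.

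Measurable members differed widely in level. Of the 40, 24 had at least 100 UMIs over the 7 types and entered the fit across all genes, 16 of them V-ATPase subunits and 8 cathepsins. The 16 left out included Atp6v0d2, Ctse, Ctsf, Ctsk, Ctso and Ctsw, which had between 14 and 85 UMIs. No UMI of Atp6v1e2, Ctsm or Ctsr was found in any kept nucleus, and Atp6v1b1, Atp6v0e2, Atp6v1g3, Ctsg and Ctsq had between 1 and 9. Atp6v1g2 and Ctsj had 23 and 12 there. Ctsj, Ctsm, Ctsq and Ctsr are close paralogs on chromosome 13 that are known from placenta, so their counts are uncertain.

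**Figure D1:**
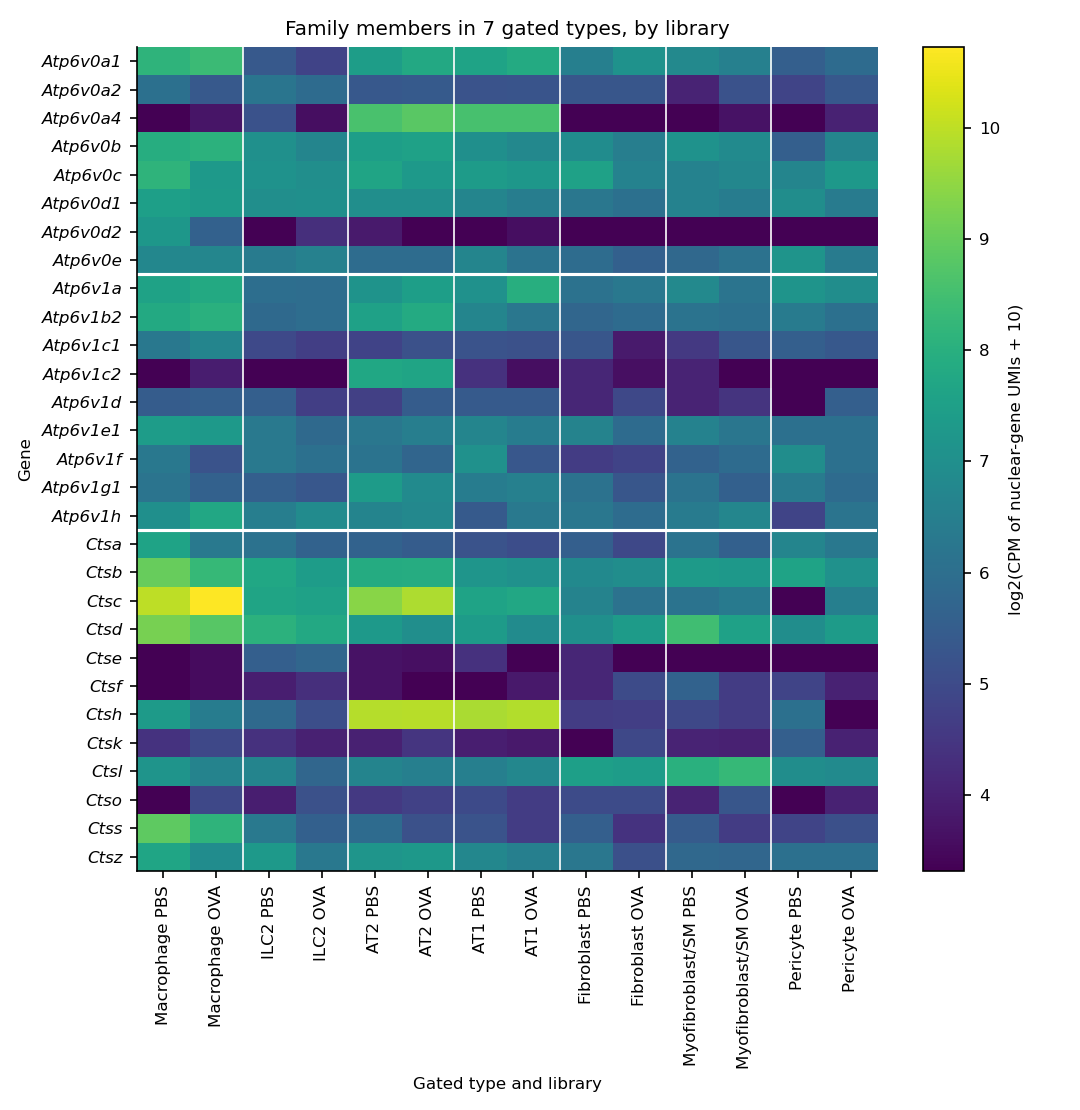
Heat map of the 29 members with at least 20 UMIs over the 7 types. Rows are genes, grouped from the top into V0 subunits, V1 subunits and cathepsins, columns are types with the PBS and the OVA library side by side, and colour is log2 of CPM plus 10. Ctsc in macrophages and AT2 nuclei and Ctsh in AT2 and AT1 nuclei are the brightest cells, and Atp6v0a4 is bright in the AT2 and AT1 columns and Atp6v1c2 in the AT2 columns.

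In macrophages the question was whether the acid pump and its proteases stood higher than in the other types of the same lung. The type was compared with the mean of the other 6 by edgeR's quasi-likelihood test on UMIs summed per library and type, with the library as a block and Benjamini-Hochberg adjustment over all 7084 genes tested. The test measures the spread between these 2 libraries, which were the only samples and came from different groups. Of the 24 members tested 14 were higher in macrophages and 0 were lower, where 24.6% of all genes tested were called higher and 24.0% lower. At an unadjusted p under 0.05 and by DESeq2 also 0 were lower, and DESeq2 called 14 higher. The median log2 difference of the 24 was 0.93, against -0.06 over all genes. Of the 24, 22 had at least 100 UMIs without counting macrophages, and 13 of those were among the 14. The other two, Atp6v1c1 and Atp6v1d, entered the test through their macrophage UMIs.

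Of the 8 cathepsins tested 6 were higher, with Ctss and Ctsc far above the rest. Ctss (chr3:95526786-95556403, + strand) encodes cathepsin S, which trims the invariant chain of MHC class II. It stood at 467 CPM (95% Poisson interval 372 to 580.04) in PBS macrophages and at 272 (232 to 318) in OVA macrophages. The next level was 69.3 in PBS and 38.0 in OVA, both in ILC2s, and the remaining types lay between 11.3 and 50.5. Macrophages thus did not overlap any other fitted type. Nuclei gated as monocytes, 34 PBS and 29 OVA, were too few for the fit and are not in this comparison. The log2 difference was 3.58 (SE 0.22, adjusted p = 3.2e-22).

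Ctsc (chr7:88278085-88310888, + strand) encodes cathepsin C, the dipeptidyl peptidase that activates granule serine proteases. It was the member with the most UMIs, at 1014 CPM in PBS and 1683 in OVA macrophages. AT2 nuclei followed at 674 and 885, AT1 nuclei at 185 and 207 and ILC2s at 192 and 178. Fibroblasts stood at 88.5 and 58.6, myofibroblasts or smooth muscle at 60.7 and 70.9, and pericytes at 0 (PBS, 0 of 53221 UMIs) and 81.3. Within each library the macrophage level was 1.505 (1.26 to 1.79) and 1.90 (1.72 to 2.10) times the AT2 level, by an exact conditional interval for counting error. The log2 difference from the mean of the other types was 3.19 (SE 0.18, adjusted p = 9.6e-24). In AT2 nuclei Ctsc was also higher than in the mean of the rest (log2 2.34, SE 0.18, adjusted p = 1.9e-17). It was lower than in the rest in fibroblasts, myofibroblasts or smooth muscle and pericytes.

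**Figure D2:**
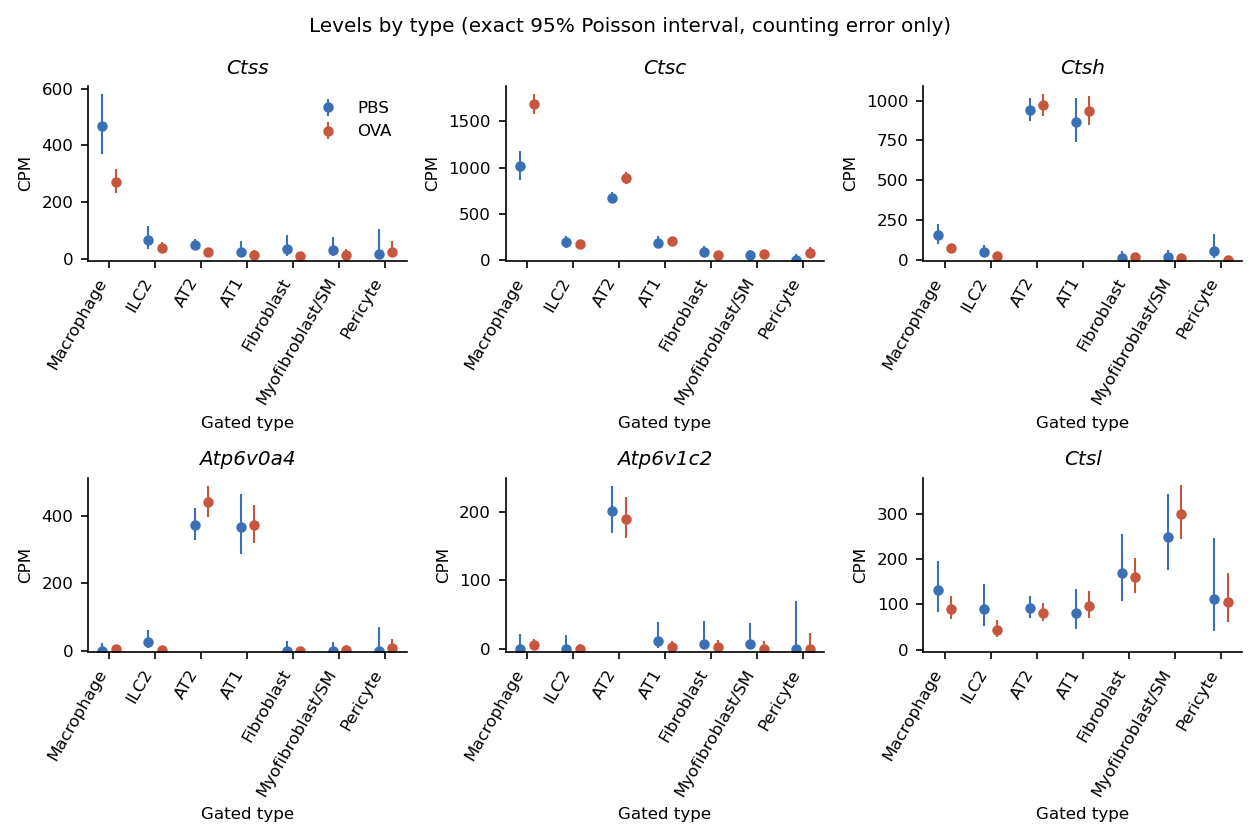
CPM of 6 members in the 7 types, with blue points for the PBS library, red points for the OVA library and bars for the exact 95% Poisson interval. Ctss and Ctsc peak in macrophages, Ctsh and Atp6v0a4 in AT2 and AT1 nuclei, Atp6v1c2 in AT2 nuclei and Ctsl in myofibroblasts or smooth muscle.

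Shares of nuclei with a UMI were compared with nuclei reduced at random to 500 nuclear-gene UMIs. Ctsc was found in 37.7% of 151 PBS and 43.1% of 360 OVA macrophages, with 33 and 3 shallower nuclei left out. Without thinning the shares were 47.3% and 66.9%. Ctss was found in 19.9% and 10.3% after thinning (29.9% and 30.03% without). In fibroblasts, with medians of 730.5 and 1823 nuclear-gene UMIs, the thinned shares were 0.877% and 2.30% for Ctsc and 0 of 114 and 0.461% for Ctss, so macrophages stood above that level in both libraries.

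The lysosomal proteases Ctsd, Ctsb, Ctsa and Ctsz were higher in macrophages by smaller margins. Ctsd, the aspartic protease cathepsin D (chr7:142375911-142388038, - strand), stood at 581 and 437 CPM in macrophages and between 108 and 344 in the other types. Its log2 difference was 1.49 (SE 0.18, adjusted p = 3.5e-10). Ctsb, a cysteine protease found in most cells, stood at 507 and 299 CPM against 103 to 231 elsewhere (log2 1.22, SE 0.19, adjusted p = 1.9e-07). Ctsa, the serine carboxypeptidase that also protects lysosomal sialidase and galactosidase, stood at 188 and 69.8 CPM. In the OVA library pericytes stood close to that level at 68.8, and the PBS pericyte level was 94.0. The log2 difference was 1.32 (SE 0.27, adjusted p = 4.4e-05). Ctsz, the carboxypeptidase cathepsin Z, overlapped more: it stood at 194 and 112 CPM in macrophages, 149 and 68.0 in ILC2s and 135 and 145 in AT2 nuclei (log2 0.91, SE 0.25, adjusted p = 0.0019). In the OVA library Ctsz was thus highest in AT2 nuclei.

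Of the 16 V-ATPase subunits tested 8 were higher in macrophages, 5 of 9 V1 and 3 of 7 V0 subunits. One of the 5 V1 subunits was Atp6v1c1, the common form of the C subunit that holds V1 to V0. With 87 UMIs in the other 6 types it reached the minimum only through macrophages, so its levels are given as a description. It stood at 68.4 CPM (12 UMIs) in PBS and 93.6 (55 UMIs) in OVA macrophages and at 4.51 to 37.6 elsewhere. Atp6v0a1, an a subunit of the membrane domain (chr11:101009452-101063719, + strand), stood at 274 and 322 CPM in macrophages. It stood at 165 and 211 in AT2, 185 and 222 in AT1 and 18.0 to 126 in ILC2 and stromal nuclei (log2 1.71, SE 0.21, adjusted p = 2.6e-10). Atp6v1b2, the common B subunit, stood at 217 and 252 CPM in macrophages and at 180 and 222 in AT2 nuclei, and between 44.2 and 92.3 elsewhere (log2 1.63, SE 0.22, adjusted p = 2.7e-09). For both a1 and B2 the AT2 level came close to the macrophage level, unlike for Ctss.

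The catalytic subunit Atp6v1a stood at 182 and 214 CPM in macrophages and reached 239.6 in AT1 nuclei of the OVA library (log2 0.95, SE 0.22, adjusted p = 0.00034). The regulatory subunit Atp6v1h stood at 119.7 and 208 CPM, against 18.8 to 110.0 elsewhere (log2 1.18, SE 0.23, adjusted p = 2.1e-05). The stalk subunit Atp6v1e1, the proteolipid Atp6v0b and the d1 subunit Atp6v0d1 were also higher, with log2 differences of 1.11, 1.12 and 0.75. Atp6v0d1 was the smallest of the 14 (SE 0.22, adjusted p = 0.0041), at 171 and 153 CPM against 56.4 to 118 elsewhere, and was not called (log2 0.48, adjusted p = 0.076) when library sizes were all gene UMIs without TMM scaling. Not called were Atp6v0c, Atp6v0e, Atp6v0a2, Atp6v1d, Atp6v1f and Atp6v1g1, with log2 differences from -0.39 to 0.66, and the cathepsins Ctsh (0.46) and Ctsl (-0.25). No fold was read for Atp6v0a4, since 5 of the 14 sums, 1 of them PBS macrophages, had 0 UMIs, nor for Atp6v1c2, with 0 and 3 UMIs in macrophages.

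Summed over all 22 subunits, V-ATPase took 2166 and 2081 CPM in macrophages and 2027 and 2156 in AT2 nuclei, so that macrophages were higher in the PBS library and AT2 nuclei in the OVA library. AT1 nuclei had 1656 and 1634 and the other types 712 to 981. Without Atp6v0a4, Atp6v0d2 and Atp6v1c2, 3 subunits left out because they were nearly confined to some types, the sum was 2023 and 2033 CPM in macrophages, 1445 and 1523 in AT2, 1276 and 1256 in AT1 and 710 to 954 in the other types. All cathepsins together took 3248 and 3085 CPM in macrophages, 2333 and 2520 in AT2, 1618 and 1617 in AT1 and 625 to 1151 elsewhere. Per kilobase of gene span, Atp6v0b was highest among the V-ATPase subunits in macrophages, at 77.7 and 87.1 CPM per kb. Ctsd led the cathepsins in the PBS library (47.9 CPM per kb) and Ctsc in the OVA library (51.3).

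**Figure D3:**
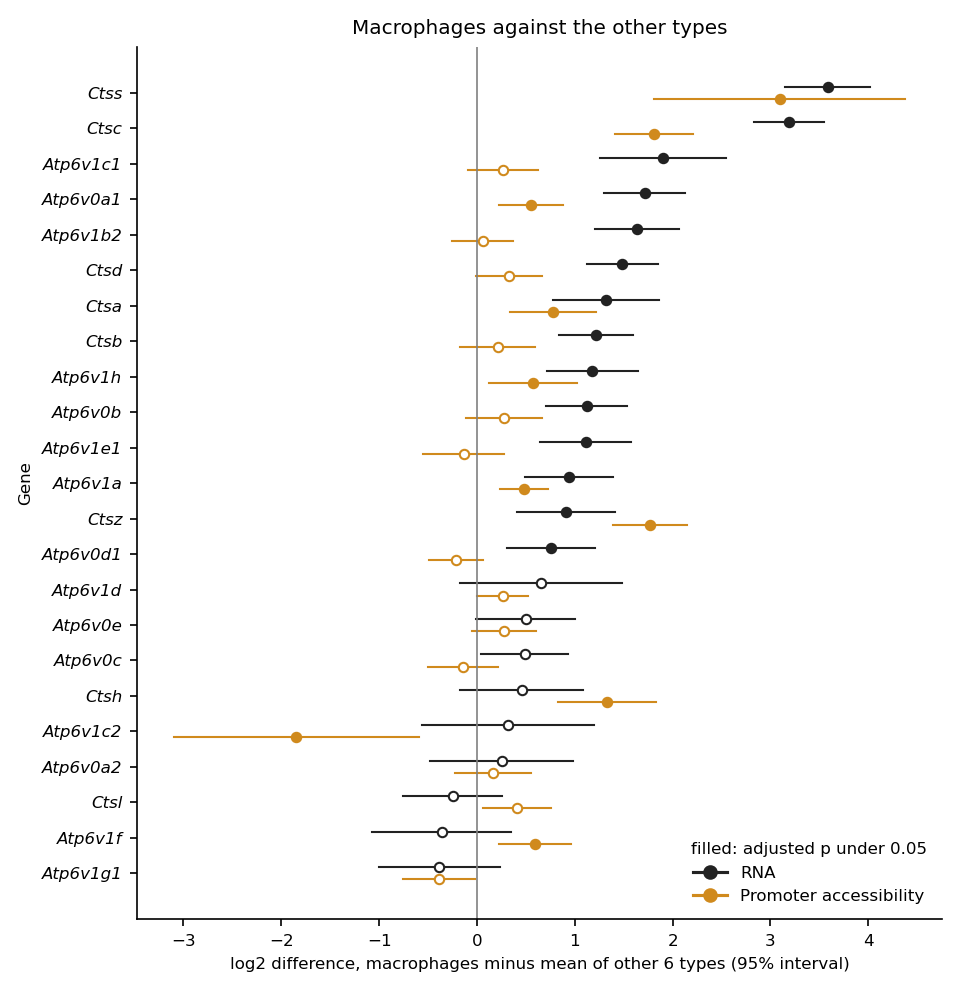
Log2 difference of macrophages from the mean of the other 6 types for 23 members (Atp6v0a4 left out), for RNA in black and promoter accessibility in orange. Points are fitted values, bars 95% intervals of the fit, and filled points have an adjusted p under 0.05. Ctss and Ctsc lead both measures, while Atp6v1b2 differs in RNA with a promoter value of 0.06. Atp6v1c1 and Atp6v1d passed the minimum for RNA only through macrophages, and Ctss did so for promoter accessibility.

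Epithelial nuclei shared part of their set with macrophages, and 3 other members stood far above all non-epithelial fitted types in AT2 or AT1 nuclei. Ctsc, Atp6v1b2, Atp6v0a1, Ctsz, Atp6v0b and Atp6v1a were called higher in both AT2 nuclei and macrophages. Of these, Atp6v0a1 and Atp6v1a were also called in AT1 nuclei. In AT2 nuclei 10 of 24 members were higher than in the mean of the other types and 1 (Ctsd, log2 -0.71) was lower, against 21.1% and 9.98% of all genes. Without counting AT2 nuclei 22 had at least 100 UMIs, and 9 of those were among the 10. The tenth, Atp6v1c2, entered the test through its AT2 UMIs. In AT1 nuclei 5 were higher and 2 (Ctsd and Ctss) lower, against 23.0% and 16.9%.

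Ctsh, the aminopeptidase cathepsin H that processes surfactant proteins (chr9:90054152-90076089, + strand), stood at 941 and 970.1 CPM in AT2 nuclei. It stood at 869 and 935 in AT1 nuclei, so that the ratio of AT2 to AT1 was 1.08 (0.91 to 1.30) in PBS and 1.04 (0.92 to 1.17) in OVA and was within counting error. Macrophages had 154 and 76.6 CPM, ILC2s 48.0 and 24.0, and stromal types 0 to 56.4. The macrophage values were 16.3% and 7.89% of the AT2 level, above the 0.906% and 0.773% of Sftpc, whereas fibroblasts had 1.57% and 1.63%, beside 0.996% and 0.758% for Sftpc. The log2 difference from the mean of the other types was 4.27 in AT2 (SE 0.20, adjusted p = 2.6e-27) and 4.28 in AT1 nuclei (SE 0.21, adjusted p = 1.9e-26).

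Atp6v0a4, the a4 subunit that places the pump in the plasma membrane of acid-secreting epithelia (chr6:38048483-38124586, - strand), stood at 376 and 443 CPM in AT2 and 369 and 373 CPM in AT1 nuclei. The AT2 to AT1 ratio was 1.02 (0.78 to 1.35) in PBS and 1.19 (0.99 to 1.43) in OVA. Fibroblasts had 0 UMIs in both libraries, which makes the AT2 level at least 17.0-fold (PBS) and 65.5-fold (OVA) higher, from a floor of 3 UMIs per library. Macrophages had 0 and 2 UMIs, stromal types 0 or 1 and ILC2s 5 and 1. In airway secretory nuclei, which were too few for the fit (27 and 16), it stood at 204 and 268 CPM.

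Atp6v1c2, the second form of the C subunit (chr12:17284721-17329359, - strand), separated the 2 alveolar types. It stood at 202 CPM (136 UMIs) and 190.3 CPM (155 UMIs) in AT2 nuclei and at 10.9 (2 UMIs) and 2.16 (1 UMI) in AT1 nuclei. The AT2 to AT1 ratio was 18.6 (5.05 to 155) in PBS and 88.2 (15.6 to 3506) in OVA. Macrophages had 0 and 3 UMIs. Airway secretory nuclei had 179 and 144 CPM from 7 UMIs each. The B1 subunit Atp6v1b1, often paired with a4 in kidney, had 1 UMI over the 7 types and 6 over all kept nuclei, of which airway secretory nuclei held 2 (PBS) and 1 (OVA).

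In AT2 nuclei Atp6v1b2 (log2 1.43), Atp6v1g1 (1.32), Atp6v0a1 (1.01), Ctsz (0.94), Atp6v0b (0.56) and Atp6v1a (0.53) were higher as well. Atp6v1g1 was highest in AT2 nuclei in both libraries, at 155.9 and 107 CPM. In AT1 nuclei Atp6v0a1 (1.25), Atp6v1a (1.04) and Atp6v1g1 (0.73) were higher.

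ILC2s had 1 member higher, Atp6v0a2, and 5 lower, against 22.0% and 18.3% of all genes. Atp6v0a2, the a subunit of Golgi and endosomes, stood at 64.0 and 49.98 CPM in ILC2s and at 6.74 to 57.0 elsewhere (log2 1.03, SE 0.35, adjusted p = 0.013). The a1 form was the reverse, at 32.0 and 18.0 CPM in ILC2s (log2 -2.44, SE 0.36, adjusted p = 6.1e-08). Atp6v1a, Atp6v1b2, Ctsh and Ctsl were also lower. Of the cathepsins known from lymphocytes, Ctse had 7 and 22 UMIs in ILC2s (37.3 and 44.0 CPM) and 8 in all the other 6 types together. Ctsw, which lymphocytes express, had 4 and 9 UMIs in ILC2s and 1 in the other 6 types. Over all kept nuclei Ctse had 78 UMIs and Ctsw 23, so nuclei outside the 7 types held UMIs of both. Both were under the minimum for the fit.

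Stromal types had few members above the rest, with Ctsl as the exception. Ctsl, the cysteine endoprotease cathepsin L (chr13:64359337-64370890, - strand), stood at 249.4 and 298 CPM in myofibroblasts or smooth muscle, 169.6 and 160.1 in fibroblasts and 44.0 to 131 in the other types. It was higher in myofibroblasts or smooth muscle (log2 1.47, SE 0.22, adjusted p = 1.2e-07) and in fibroblasts (log2 0.67, SE 0.24, adjusted p = 0.029). The fibroblast call was lost with a stricter gate and without the library block. It was the 1 member called higher in each, against 15.5% of all genes in myofibroblasts or smooth muscle and 17.0% in fibroblasts. In fibroblasts 8 members were lower, against 10.6% of all genes, and in myofibroblasts or smooth muscle 2 (Ctsh and Ctsc), against 4.9%. By edgeR pericytes had 0 members higher, also at an unadjusted p under 0.05, against 11.7% of all genes, and 3 lower (Ctsh, Ctsc and Atp6v0a1), against 6.63%. Ctsk, the collagen-degrading cathepsin of osteoclasts, had at most 12 UMIs in any type and library.

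The macrophage nuclei were split by markers outside the family into nuclei with more UMIs of alveolar macrophage genes (62 PBS and 129 OVA) and with more UMIs of interstitial macrophage genes (49 and 113). The PBS interstitial set was thus under 50 nuclei. Nuclei with neither numbered 73 and 121. Only Ctsd passed the test between the first 2 subsets among the 24 members tested, and it was higher in the alveolar subset, where 0.339% of all genes were called higher and 1.0% lower.

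Ctsd stood at 716 CPM (54 UMIs) and 650.4 CPM (156 UMIs) in the alveolar subset and at 491 (21 UMIs) and 202 (36 UMIs) in the interstitial subset. The log2 difference was 1.32 (SE 0.32, adjusted p = 0.0094). Within libraries the log2 ratio was 0.55 (-0.21 to 1.35) in PBS, where the intervals of the levels overlapped, and 1.68 (1.15 to 2.25) in OVA. The call was lost with DESeq2 (adjusted p = 0.14), without the library block (0.16) and after thinning (0.083).

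Atp6v0d2, the d2 subunit known from osteoclasts and macrophages (chr4:19876841-19922605, - strand), had 57 UMIs over the 7 types, too few for the fit, and most were in macrophages. Macrophages held 25 PBS UMIs (142 CPM) and 23 OVA UMIs (39.1 CPM), and the other 6 types together 3 and 6. Of the macrophage UMIs, 22 of the 25 and 19 of the 23 were in the alveolar subset, and 1 in the interstitial subset in each library. The alveolar subset thus stood at 292 (183 to 442) and 79.2 (47.7 to 124) CPM and the interstitial subset at 23.4 and 5.62, with a log2 ratio of 3.64 (1.01 to 9.01) in PBS and 3.82 (1.16 to 9.19) in OVA. Its paralog Atp6v0d1, present in every type, did not pass the test between the subsets (log2 -0.45, interval -1.24 to 0.34).

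**Figure D4:**
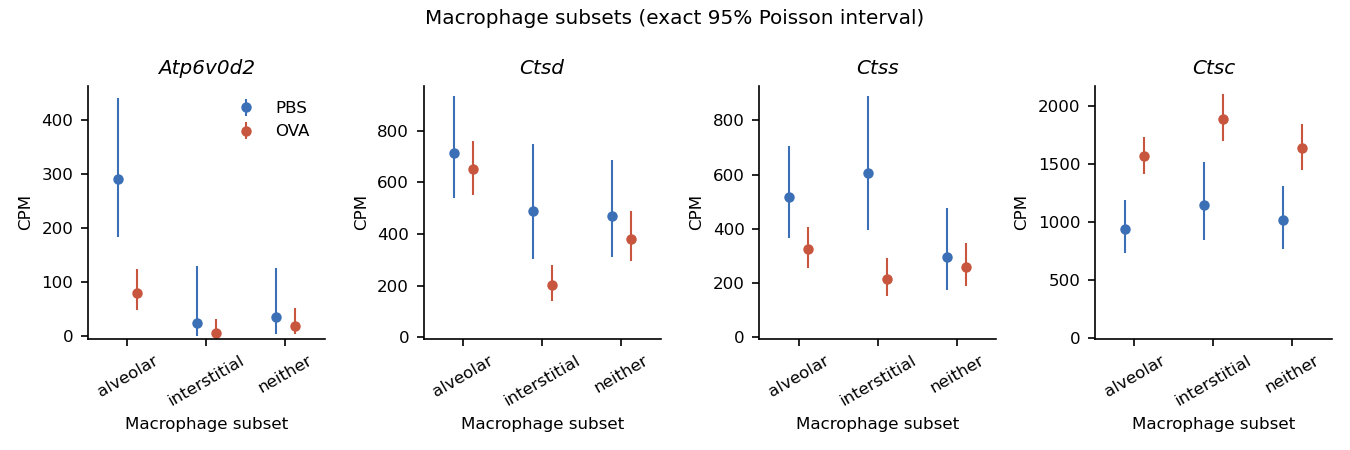
CPM of 4 members in the alveolar, interstitial and remaining macrophage nuclei, with blue points for the PBS library, red points for the OVA library and bars for the exact 95% Poisson interval. Atp6v0d2 stands out in the alveolar subset of both libraries, and Ctsc is higher in the OVA library in each subset.

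Promoter accessibility, a readout that neither the rule nor the gates used, was tested in the same way. Transposition counts were summed over peaks within 1 kb of a gene's start sites, with peaks called in each library separately. Of the 40 members 31 had such a peak in both libraries and 29 had enough counts. In macrophages 10 were higher and 2 (Atp6v0a4 and Atp6v1c2) lower, against 14.9% and 14.4% of 17213 genes. Among the 10, Ctse and Ctss reached the minimum only with their macrophage counts, so their calls are a description. With the most upstream start of each gene alone 0 members were called lower. Macrophages had 0 counts of Atp6v0a4 at that start in both libraries, so no fold could be read for it.

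Ctss had 14 and 56 counts in macrophages (7.84 and 16.1 CPM of all transposition counts) and at most 5.27 CPM in other types (log2 3.10, SE 0.65). Ctsc stood at 64.9 and 55.4 CPM in macrophages, 40.8 and 46.0 in ILC2s and 44.2 and 49.3 in AT2 nuclei, and at 4.64 to 33.3 in AT1 and stromal nuclei. Its log2 difference was 1.81 (SE 0.20, adjusted p = 2.0e-13), and it was also called higher in AT2 nuclei (log2 1.24) and in ILC2s (1.04). Of the 29 promoters 5 were higher and 3 lower in ILC2s, against 15.7% and 15.0% of all genes, and 5 were higher and 2 lower in AT2 nuclei, against 14.9% and 3.12%. Ctse was among the 5 in each, and there too it reached the minimum only with the counts of the type compared. In AT2 nuclei the same held for Atp6v1c2, another of the 5. The Ctsc promoter was thus about as open in ILC2s as in AT2 nuclei, while its RNA stood at 192 and 178 CPM in ILC2s and 674 and 885 in AT2 nuclei.

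Ctsz, Ctsa, Atp6v1h, Atp6v0a1 and Atp6v1a were higher in both RNA and accessibility. Ctsd and Ctsb, higher in RNA, had log2 promoter differences of 0.33 (SE 0.17) and 0.21 (SE 0.20) that were not called. Atp6v1f, not called in RNA (-0.36), had a more open promoter in macrophages (log2 0.59, SE 0.19, adjusted p = 0.00845), and Ctsh also differed in this way. Ctse was not tested in RNA, and its promoter call is a description. The Ctsh promoter stood at 39.7 and 35.0 CPM in macrophages, 29.8 and 21.1 in AT2 and 35.4 and 33.3 in AT1 nuclei, although macrophage RNA was at most 16.3% of the AT2 level. The Ctse promoter had counts in macrophages (12 and 27), ILC2s (21 and 14) and AT2 nuclei (36 and 15) and 0 in the other 4 types, while macrophages had 0 and 1 UMIs of its RNA.

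At the starts of Atp6v0a4 AT2 nuclei had 714 and 479 counts (117 and 137 CPM) and AT1 nuclei 106 and 107 CPM, against 0 to 5.54 in the other types. At Atp6v1c2 AT2 nuclei had 81.6 and 67.3 CPM, AT1 nuclei 8.05 and 9.07 and the others 0 to 8.15. The AT2 log2 differences were 4.95 (SE 0.21, adjusted p = 2.1e-43) and 4.61 (SE 0.28). Atp6v1c2 reached the minimum only with its AT2 counts, so its value is a description. Atp6v0a4 and Atp6v1c2 have start sites spread over several kilobases, and with the most upstream start alone the AT2 differences were 4.66 and 3.07 and were called. Both genes reached the minimum at that start only with their AT2 counts, so these values are a description. At that start Atp6v0a4 had 12.9 and 11.98 CPM in AT2 and 12.9 and 15.1 in AT1 nuclei. Atp6v1c2 had 19.5 and 17.4 CPM in AT2 nuclei and 3.22 and 0 in AT1 nuclei, below the 6.44 and 3.33 of ILC2s. AT2 nuclei thus led at Atp6v1c2 in both windows, and AT1 nuclei did not stand apart from the other types there.

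The OVA and PBS libraries were compared within macrophages for the 13 members with at least 100 UMIs. None was changed 2-fold with an interval that left out equality, in either direction (0 higher and 0 lower), against 3.73% of 1688 genes higher and 4.27% lower in OVA. No test was possible, and all intervals are exact and cover counting error only. The median log2 ratio of OVA to PBS was -0.09 for these members and 0.23 for all genes.

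Ctsc was higher in OVA macrophages, at 1683 against 1014 CPM (log2 0.73, interval 0.50 to 0.97). It was so in each subset, with log2 ratios of 0.73 (0.36 to 1.12), 0.72 (0.29 to 1.18) and 0.69 (0.28 to 1.13) in the alveolar, interstitial and remaining nuclei. The other 4 cathepsins with at least 100 UMIs were lower in OVA: Ctss by -0.78 (-1.17 to -0.38), Ctsb by -0.76 (-1.14 to -0.38), Ctsz by -0.79 (-1.40 to -0.15) and Ctsd by -0.41 (-0.75 to -0.07). Of the V-ATPase subunits Atp6v0c was lower (-0.89, -1.41 to -0.35) and Atp6v1h higher (0.79, 0.12 to 1.54). The intervals of Atp6v0a1, Atp6v0b, Atp6v0d1, Atp6v1a, Atp6v1b2 and Atp6v1e1 spanned 0.

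Under the minimum, Ctsa had 33 PBS and 41 OVA UMIs (log2 -1.43, -2.13 to -0.72), Atp6v0d2 25 and 23 (-1.86, -2.75 to -0.99) and Ctsh 27 and 45 (-1.01, -1.73 to -0.26). In the alveolar subset alone Atp6v0d2 had 22 and 19 UMIs (-1.88, -2.85 to -0.93). Mitochondrial UMIs took 47.9% of the macrophage total in PBS and 39.0% in OVA, and the nuclei of the OVA library were deeper. Their part in these ratios was not tested. Over all gene UMIs the ratio of Ctsz (-0.56, -1.18 to 0.08) and of Ctsd (-0.18, -0.52 to 0.16) spanned 0, and Atp6v1h passed 2-fold (1.02, 0.35 to 1.77).

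**Figure D5:**
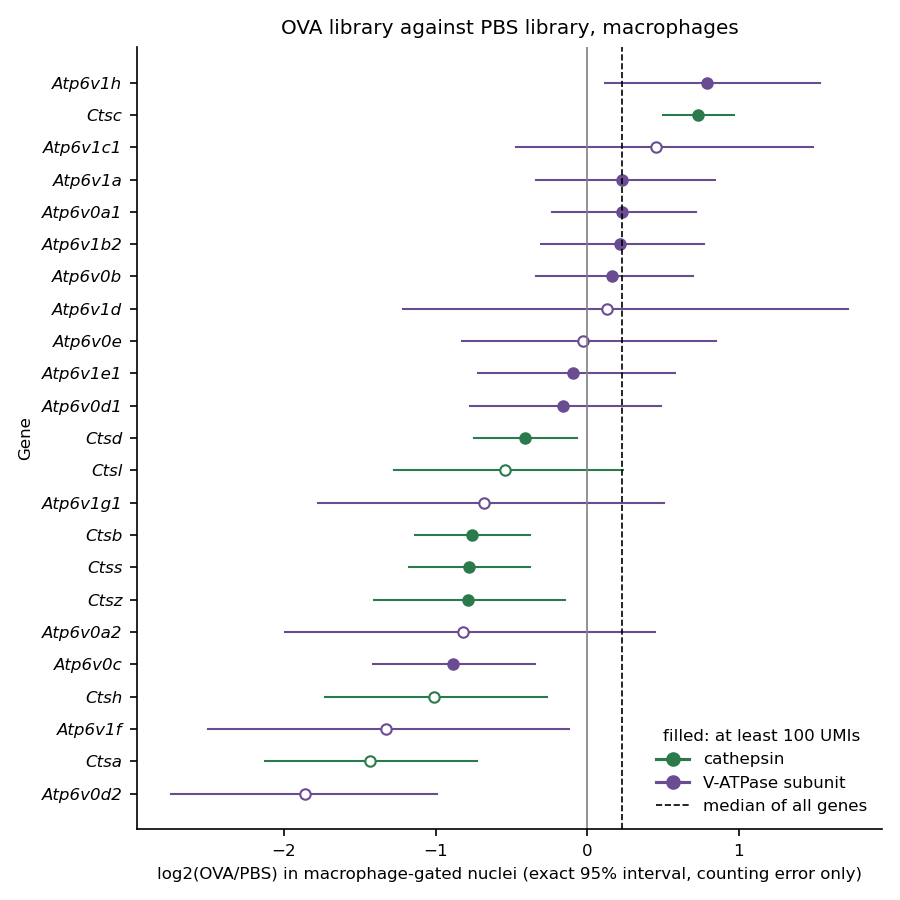
Log2 ratio of OVA to PBS in macrophage nuclei for the 23 members with at least 20 UMIs over both libraries, cathepsins in green and V-ATPase subunits in violet. Bars are exact 95% intervals for counting error, filled points have at least 100 UMIs, and the dashed line is the median of all genes (0.23). Ctsc and Atp6v1h lie right of 0 with their intervals, and 9 members lie left of 0 with theirs.

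In AT2 nuclei 17 members had at least 100 UMIs and none was changed 2-fold, against 2.19% of genes higher and 0.912% lower. Ctsc had a log2 ratio of 0.39 (0.22 to 0.57) and Ctsh of 0.04 (-0.11 to 0.20). In ILC2s 3 members had at least 100 UMIs and 0 were changed 2-fold, against 5.46% of genes higher and 0.835% lower, and Ctsc had -0.11 (-0.68 to 0.49). Whether the ratio of Ctsc differed between macrophages, AT2 nuclei and ILC2s was not tested.

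Other lysosomal genes, from a list of 52 that does not share members with the family, were counted in the same macrophage fit. Of 41 tested 25 were higher and 4 lower, beside 24.6% and 24.0% of all genes. Of the 41, 33 had at least 100 UMIs without counting macrophages, and of those 17 were higher and 4 lower. The other 8, Cd68, Clcn7, Cln3, Dnase2a, Galns, Mcoln1, Ppt1 and Tcirg1, entered the test through macrophages. Over this list, the transcription factors and the cathepsin inhibitors, the 4 highest were Tfec and Mitf (log2 6.22 and 3.92), transcription factors of the family that also holds TFEB, the Batten disease protein Cln3 (3.49) and the glycoprotein Cd68 (2.99). Tfec, Cln3 and Cd68 had 46, 55 and 46 UMIs outside macrophages and also reached the minimum only through them, so that their values are a description, whereas Mitf had 452. Of the 4 transcription factors 3 were tested, and Tfe3 was not called (0.36). Tcirg1, the a3 subunit of the V0 domain under another name, stood at 177 and 124 CPM in macrophages and 6.76 to 60.7 elsewhere, from 104 UMIs in macrophages and 91 in the other types. The 4 lowest were Igf2r (-3.87), the receptor that carries mannose-6-phosphate enzymes to lysosomes, the tetraspanin Cd63 (-2.54), the cathepsin inhibitor Serpinb6a (-1.41) and the cholesterol carrier Npc2 (-1.08). Of 11 cathepsin inhibitors 3 were tested, and Cstb was higher (0.86) and Cst3 not called (-0.14). The call of Cstb was lost with a stricter gate, and with DESeq2 0 of the 3 inhibitors were called in either direction.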

How the data were processed

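The authors deposited raw counts per barcode from Cell Ranger ARC 2.0.1 on mm10: whole UMI counts per gene and transposition counts per peak, with no normalization. Groups came from the labels. Filters required 200 genes and a mitochondrial share of no more than 60%, and doublets (293 and 250) scored by simulated doublets among their neighbours were removed, which left 4279 PBS and 4996 OVA nuclei of 8019 and 5960 barcodes (11473351 and 13774959 gene UMIs). A gate needed at least 2 UMIs from at least 2 markers of a type and 2/3 of all marker UMIs. Sums per library and type were fitted with edgeR 4.0.16 (minimum 100 UMIs, TMM) in R 4.3.3, tested on simulated data, with DESeq2 1.42.0 as an alternative. Ratios between libraries used sums over nuclear-gene UMIs. Gene spans are GENCODE M21. Start windows run from the first to the last deposited start. Members, lists and gates were chosen with earlier results of these data known, and the search for motifs and the promoter contrasts of types other than macrophages were added after RNA values were seen. Named genes were a set list of 20 members, up to 10 other members with the largest difference past 0.05 in the macrophage contrast, and the 4 highest and 4 lowest of the lysosomal lists past 0.05. Other genes named were chosen after their values were seen. Intervals are 95%. Those of levels, shares and ratios cover counting error only, and those of fitted differences come from the edgeR fit.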

Additional observations from a re-analysis of the deposited data

Results flagged for a closer look

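Nuclei gated as mast cells or basophils were too few for the fit (19 PBS and 82 OVA). Ctsd stood above its level in all 7 fitted types in each library there, at 961 CPM in PBS (12 UMIs, interval 497 to 1679) and 710 CPM in OVA (66 UMIs, 549 to 903). It was picked out because at least 10 UMIs per library were seen in nuclei outside the comparisons and the level was above that of each fitted type. The macrophage levels were 581 and 437 CPM, and the interval of the PBS value overlapped the macrophage level.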

How the results depend on the processing

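No paired analysis was possible because the PBS and OVA groups are single libraries. Over the alternatives run, the 14 higher and 0 lower members in macrophages stayed within 1.5 times. Among counts of members, the subset contrast gave 0 higher with DESeq2, without the library term and after thinning, and 2 with no filter. Without the library term AT1 had 0 lower and fibroblasts 0 higher. With a stricter gate AT1 had 1 lower, fibroblasts 0 higher, myofibroblasts or smooth muscle 4 lower, macrophage promoters 1 lower and the cathepsin inhibitors 0 higher. With doublet calls kept AT1 had 1 lower, AT2 3 lower and macrophage promoters 1 lower. DESeq2 called 0 inhibitors higher and 0 lower. A 2 kb window gave 16 promoters higher, and the most upstream start alone, an alternative chosen after seeing the data, 0 lower. At that start no fold could be read for Atp6v0a4 in macrophages. Between the libraries macrophages had 1 member higher over all gene UMIs, and 3 lower relative to the median gene, 1 with a stricter gate and 3 at a minimum of 30 UMIs, where AT2 had 1 higher and ILC2s 2 lower. The AT2 median was 0.35 over all gene UMIs. In the macrophage contrast, where neither was called, Atp6v0a2 turned to -0.017 with all gene UMIs and no TMM and Atp6v1c2 to -0.27 with DESeq2. The cause was not tested. A limit of 20% mitochondrial UMIs was not run for macrophages. Each group had 1 library and macrophage nuclei were shallow, so members under 100 UMIs have wide counting intervals.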
